A study of Mus musculus with 6 samples.

Results

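The elastic fibre genes considered here are 10 mouse genes for elastin (Eln), the fibrillins (Fbn1, Fbn2), the fibulins (Fbln1, Fbln2, Fbln5, Efemp1, Efemp2) and the microfibril-associated glycoproteins (Mfap2, Mfap5). They were followed through every probe set that the platform's probe table assigned to 1 of these symbols. This gave 16 probe sets of 8 genes, of 45037 probe sets and 18193 named genes in all. Fbn1 and Efemp2 were not analysed here. RNA came from 2T3 cells, a mouse calvarial pre-osteoblast line immortalised with a viral large T antigen. The rotated samples, 3 in number, had spent 3 days in a rotating wall vessel, a horizontally turning fluid-filled chamber used on the ground to simulate microgravity. The static samples, also 3, had spent 3 days in static culture, and the cells of both groups were at passage 8 to 10. Groups follow the titles, which mark rotated samples only by the letter R; for static 2 and static 3 another label field gives simulated microgravity instead. The labels do not say whether samples of a group were separate cultures, so p-values reflect only the spread of these samples, possibly a technical one.

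Elastic fibres form outside the cell, where elastin is laid down and cross-linked on a scaffold of microfibrils. Fibrillins are the main subunits of the microfibrils, the microfibril-associated glycoproteins bind to them, and fibulins help to bring elastin, fibrillin and the cross-linking enzymes together. Besides giving stretch to arteries, lung and skin, fibrillin microfibrils hold latent TGF-beta and BMPs in the matrix, and in bone they are known to affect osteoblast activity.

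Each array had 1 deposited signal per probe set on a linear scale, with an array median of 70.0 to 88.8 in rotated samples and 71.2 to 130.1 in static ones. Rotated 1 stood apart: the 3' over 5' ratio of the actin controls was 3.21, a measure of RNA or labelling quality. It was 1.57 and 1.48 in the other rotated samples, against 1.29 to 1.37 for static culture, so the actin ratio separates the groups even without rotated 1. The transferrin receptor and Gapdh controls did not separate them. The transferrin receptor ratio was 8.92, 2.73 and 2.67 in rotated 1, rotated 2 and rotated 3, and 1.62 to 3.71 in static samples. The Gapdh ratio was 0.76 to 0.87 in rotated samples and 0.75 to 0.87 in static ones. Static 1 stood apart by its dimmest signals, whose 10th percentile was 22.1 there and at most 7.2 elsewhere. Of the 7 measured pre-osteoblast markers (Sp7, Dlx5, Alpl, Col1a1, Col1a2, Ibsp and Pth1r), all passed the filter on dim probe sets. The endothelial markers (Pecam1, Cdh5 and Tek) had 0 of 3 genes above that filter, and the blood cell markers (Ptprc, Itgam and Cd68) had 1 of 3, Cd68. The smooth muscle markers (Myh11, Cnn1, Des and Smtn) had 3 of 4, all but Myh11, so passing the filter is not particular to pre-osteoblast markers.

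The brightest probe sets of Fbln1, Fbln2 and Fbln5 were 2.26-fold, 1.94-fold and 1.86-fold lower in value in the rotated samples, and none of these differences passed the adjusted test. The dimmer probe set of Fbln2 stood 2.39-fold higher, and elastin did not differ beyond its error. A gene was represented by its brightest probe set above the filter, a mean of 5.96 on the log2 scale, which 6 of the 8 genes passed. Their median log2 difference, rotated minus static, was -0.78, beside 0.03 over all 12554 tested genes. Of these 6 genes, 5 were lower in value and 1 was higher, where 46.8% of all tested genes were lower. With no filter on dim probe sets, 7 of the 8 genes were lower, where 49.3% of all genes were, and their median was -0.65.

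None of the 6 passed limma's test after Benjamini-Hochberg adjustment over all 27022 tested probe sets at 0.05, and 0% of all tested genes passed. Adjusted p lay between 0.592 and 0.988 for the 11 tested probe sets of these genes. At an unadjusted p under 0.05, limma had 3 of the 6 genes, Fbln1, Fbln2 and Fbln5, all lower, where the share of all tested genes lower at that level was 3.74%, and 8.24% in either direction. The same-numbered samples deviated together, and with the replicate number as a block Mfap5 joined them. That made 4 of 6, where 6.75% of all tested genes were lower at that level, and the smallest adjusted p among the probe sets of the family was then 0.219; 0.0074% of all probe sets passed with the block. The unadjusted count was 1, with Fbln5 alone, without rotated 1, without static 1 or without static 3.

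Within the 3 pairs of same-numbered samples, 5 of the 6 genes were lower in the rotated sample each time (Fbn2, Fbln1, Fbln2, Fbln5 and Mfap5), where 19.4% of all tested genes were. The groups did not overlap in 1 of 6, Fbln5, where 7.11% of all tested genes did not overlap with the rotated values lower.

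**Figure D1:**
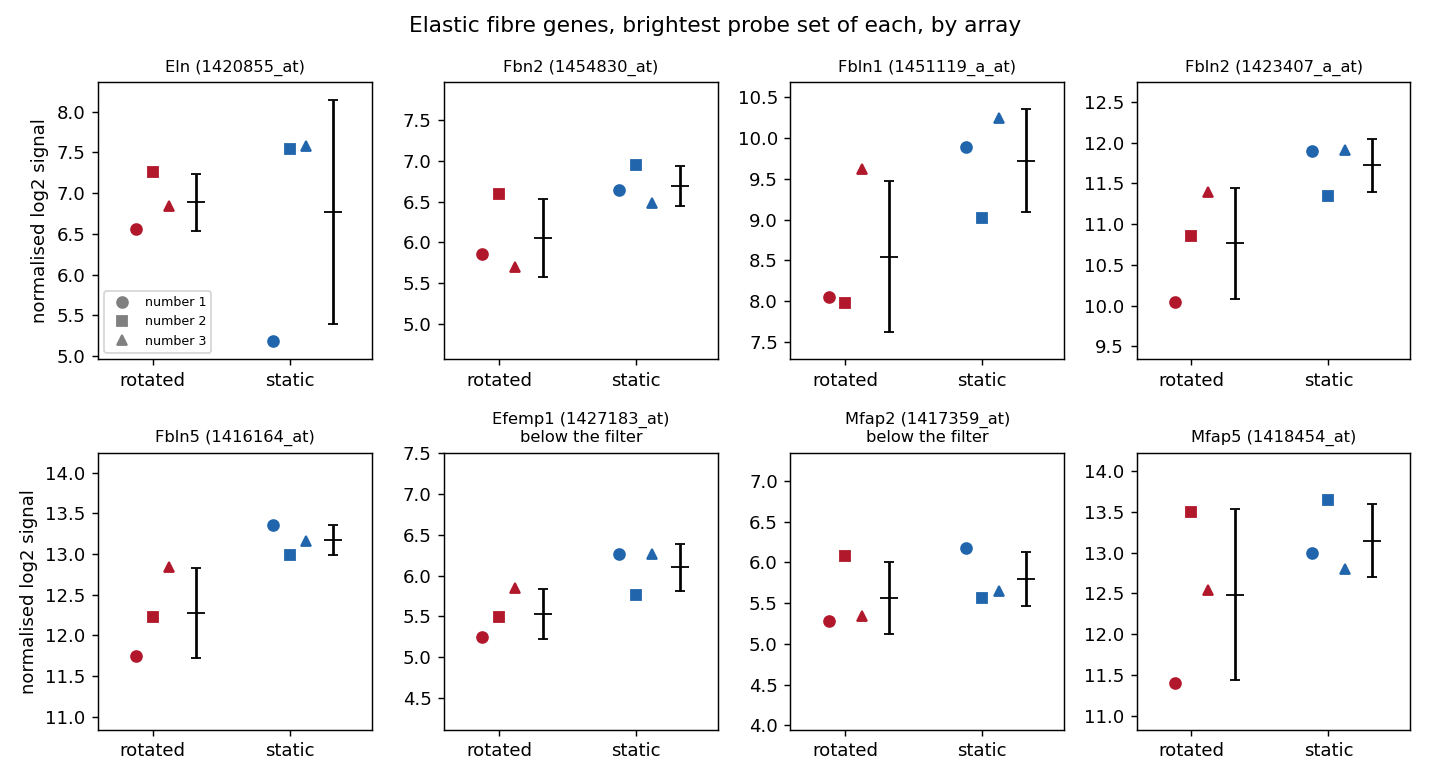
Normalised log2 signal of the brightest probe set of each of the 8 measured elastic fibre genes, 1 point per array, with rotated samples in red left of static samples in blue and the replicate number shown by the symbol. Bars are the mean and SD of 3 arrays. Every panel spans the same range of log2 units, levels are not comparable between panels, and Fbln5 is the gene above the filter whose groups do not overlap.

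Fibulin-5, encoded by Fbln5, binds elastin, the cross-linking enzymes and cell-surface integrins, and mice without it assemble elastic fibres poorly. Its brightest probe set, 1416164_at, had a deposited signal of 3525, 4828 and 7145 in rotated 1, rotated 2 and rotated 3, against 9414, 8531 and 8648 in static 1, static 2 and static 3. All rotated samples lay below all static samples, and the rotated samples differed more among themselves than the static ones did. The normalised log2 signal averaged 12.27 ± 0.55 in rotated samples and 13.17 ± 0.19 in static samples (SD, n = 3 each). The log2 difference was -0.89 ± 0.26 (SE), with an adjusted p of 0.592 in limma. It was -1.61, -0.77 and -0.31 for the samples numbered 1, 2 and 3. Without rotated 1, whose actin ratio was 3.21, it was -0.63, and it was negative in each of the 18 alternatives run on it. The actin ratio was higher in every rotated sample than in any static one, so its part cannot be told apart from that of rotation. With the ratio as a covariate the difference was -0.49, which does not measure that part. The other probe set, 1446377_at, was dim, with 36.6 to 56.4 in rotated samples and 49.4 to 109.6 in static ones, and differed by -0.35 ± 0.38. After normalisation its groups did not overlap either.

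Fibulin-1, encoded by Fbln1, is a calcium-binding glycoprotein of elastic fibres and basement membranes. Its brightest probe set, 1451119_a_at, had 222, 227 and 808 in rotated 1, rotated 2 and rotated 3, against 927, 501 and 1241 in static 1, static 2 and static 3. Rotated 3 lay above static 2, so the groups overlapped, but each rotated sample lay below the static sample of its number. The log2 difference was -1.18 ± 0.47, the largest in size among the 6 genes, and -1.18 ± 0.26 with the replicate block. Without rotated 3 it was -1.71 and without static 3 it was -0.91. A probe set matched to another Fbln1 transcript record, 1422540_at, had 150, 181 and 401 in rotated samples and 380, 257 and 693 in static samples, in the order of their numbers. It differed by -0.77 ± 0.42, and again each rotated sample lay below its same-numbered static one. The dimmest probe set of the gene, 1439688_at, had 26.6 to 84.3 in rotated samples and 59.6 to 75.5 in static ones. Its difference of -0.03 ± 0.44 was far smaller than its error.

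Fibulin-2, encoded by Fbln2, binds fibronectin, fibrillin and the proteoglycan versican. The probe set 1423407_a_at had 972, 1858 and 2720 in rotated 1, rotated 2 and rotated 3, against 3546, 2627 and 3789 in static 1, static 2 and static 3. Rotated 1 was the lowest by a wide margin, and rotated 3 lay just above static 2. The log2 difference was -0.96 ± 0.33, and -0.60 without rotated 1. The probe set 1438375_at ran the other way, with 109, 115 and 64.3 in rotated samples and 40.1, 42.5 and 25.7 in static samples. All rotated values of it lay above all static values, at low signals, and it differed by 1.25 ± 0.41. The change of the brighter probe set minus that of the dimmer one was -2.21 (log2). This contrast was tested only because the probe sets differ in sign. The exact two-sided permutation test over the 20 assignments of arrays gave p = 0.1, the smallest value that 3 against 3 samples allow. A test chosen this way, with that floor, cannot decide. With opposite signs in its probe sets, the data give no single direction for Fbln2. The contrast stayed between -2.67 and -1.81 when any single array was left out.

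**Figure D2:**
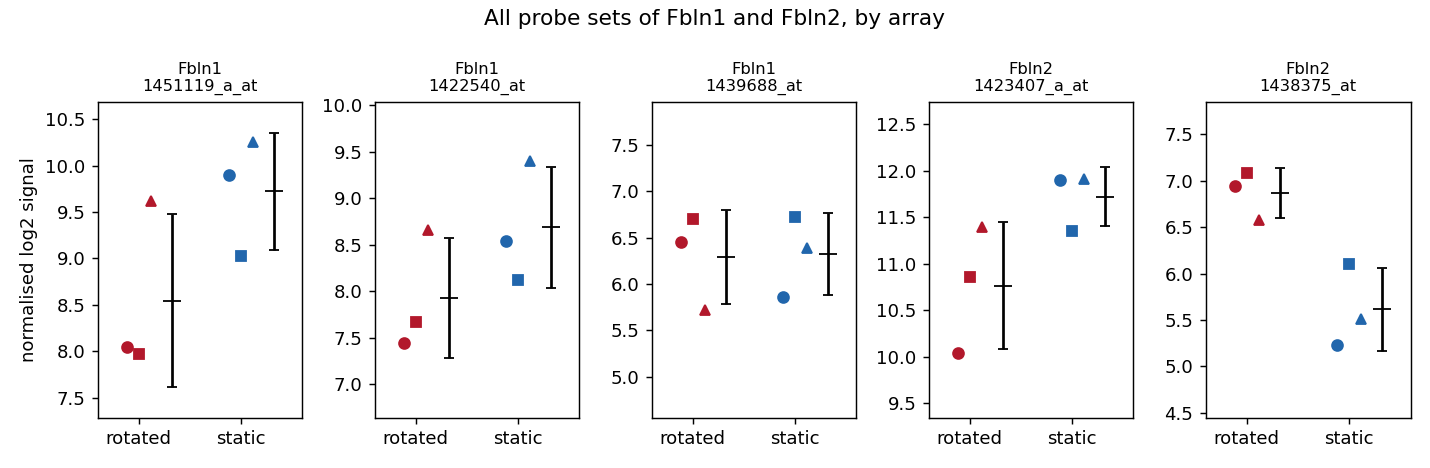
Normalised log2 signal of the 3 probe sets of Fbln1 and the 2 of Fbln2, 1 point per array, rotated in red left of static in blue, with the mean and SD of 3 arrays as bars and the replicate number as the symbol (circle 1, square 2, triangle 3). The brighter sets of both genes lie lower in rotated samples, 1439688_at does not separate the groups, and 1438375_at of Fbln2 lies higher in every rotated sample.

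The bases just upstream of the first listed transcription start of these 3 fibulin genes are shown because they are the members at an unadjusted p under 0.05 in limma, though none passed adjusted and the probe sets of Fbln2 disagree. They are the 250 bases before the start from RefSeq on build GRCm38.p6, written 5' to 3' on the gene's strand, which is the plus strand for Fbln1 and Fbln2 and the minus strand for Fbln5. Windows of this kind were examined for 5 of the 8 measured genes. They lie at chr12:101819120-101819369 for Fbln5, chr15:85205699-85205948 for Fbln1 and chr6:91212514-91212763 for Fbln2. Capitals mark matches on either strand to TATAAA (the core promoter box bound by TBP), CCAAT (the NF-Y box), GGGCGG (Sp1 box), TGANTCA (AP-1), GGAATG (TEAD) or CAGACA (SMAD).
Fbln5: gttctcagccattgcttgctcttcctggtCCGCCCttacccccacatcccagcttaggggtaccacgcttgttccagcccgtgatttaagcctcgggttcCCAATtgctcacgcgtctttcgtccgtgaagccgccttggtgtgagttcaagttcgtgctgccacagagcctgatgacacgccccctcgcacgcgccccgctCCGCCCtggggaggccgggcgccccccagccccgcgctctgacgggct
Fbln1: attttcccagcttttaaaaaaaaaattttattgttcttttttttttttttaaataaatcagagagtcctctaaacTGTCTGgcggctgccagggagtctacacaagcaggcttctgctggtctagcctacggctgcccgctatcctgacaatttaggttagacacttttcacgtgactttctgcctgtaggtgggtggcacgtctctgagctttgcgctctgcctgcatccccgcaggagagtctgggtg
Fbln2: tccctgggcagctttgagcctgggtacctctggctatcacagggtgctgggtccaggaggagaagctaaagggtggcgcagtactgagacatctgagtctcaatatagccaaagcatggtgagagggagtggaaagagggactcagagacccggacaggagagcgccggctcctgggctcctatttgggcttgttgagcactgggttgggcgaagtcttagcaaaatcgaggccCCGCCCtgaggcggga
The Sp1 letters occurred in the windows of Fbln5 (at 2 places) and Fbln2, and in 32.7% of all 32851 such windows. The Fbln5 window also held the NF-Y letters, as did 33.8% of all, and the Fbln1 window held the SMAD letters, as did 17.1%. The 3 windows held no match to the TBP, AP-1 and TEAD letters, found in 12.4%, 6.75% and 12.6% of all. No motif occurred in all 3 windows shown, but with the second listed start of Fbln1 all 3 genes hold the Sp1 letters, since that window has them 11 to 6 bases upstream. Efemp1 and Mfap2, both below the filter, also hold the Sp1 letters in their first listed windows, so these letters are not particular to the 3 genes. The share of 32.7% counts single windows, not genes with several. The window of the second listed start of Fbln5 holds the SMAD letters, as the Fbln1 window does. The GC content was 65.2% for Fbln5, 46.4% for Fbln1 and 58.8% for Fbln2, beside a median of 52.4% over all windows. These matches describe the letters and do not show that a factor binds there.

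Efemp1 encodes fibulin-3, a short fibulin that binds TIMP-3 and is found along basement membranes. Its probe set 1427183_at was below the filter, with 22.4, 27.2 and 30.9 in rotated 1, rotated 2 and rotated 3, against 98.0, 30.3 and 53.4 in static 1, static 2 and static 3. On the normalised scale the highest rotated sample lay above the lowest static one, and each rotated sample lay below the static sample of its number. In the fit without a filter it differed by -0.57 ± 0.42, with an adjusted p of 0.775 in limma. At signals this low the offset of 16.6 added before taking logs understates differences.

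Elastin itself, the stretchable core protein encoded by Eln, gave no settled direction. The probe set 1420855_at had 82.9, 131 and 84.1 in rotated 1, rotated 2 and rotated 3, against 38.8, 159 and 173 in static 1, static 2 and static 3. Static 1 was the lowest of all 6 arrays, while static 2 and static 3 were the highest. The log2 difference was 0.12 ± 0.62, and it was -0.67 without static 1 and -0.11 with the values as deposited. The dimmer Eln probe set 1420854_at, below the filter, had 11.4, 12 and 8.5 in rotated 1, rotated 2 and rotated 3, against 82.3, 9.6 and 14.6 in static 1, static 2 and static 3. Static 1 stood at the other end here, as the highest array. In the fit without a filter it differed by -0.46 ± 0.38.

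Fibrillin-2, encoded by Fbn2, is the fibrillin best known from embryonic microfibrils, and mice lacking it have impaired osteoblast maturation. The probe set 1454830_at had 46.3, 77.2 and 26.0 in rotated 1, rotated 2 and rotated 3, against 129, 93.6 and 64.6 in static 1, static 2 and static 3. Each rotated sample lay below the static sample of its number, and rotated 2 lay above static 3. The log2 difference was -0.64 ± 0.40, and the rotated mean of 6.05 lay close to the filter's 5.96. The dimmer probe set 1422831_at, below the filter, had 3.9, 10.6 and 1.8 in rotated samples and 107, 46.0 and 12.1 in static samples. All rotated values of it lay below all static values, and it differed by -1.31 ± 0.43 with no filter (adjusted p 0.677 in limma). The rotated values and static 3 lie below the offset of 16.6, so the difference is not an exact fold.

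The microfibril-associated glycoproteins MAGP-1 and MAGP-2, encoded by Mfap2 and Mfap5, are small proteins that bind fibrillin, and MAGP-2 also carries an integrin-binding sequence. Mfap5 was well above the filter. Its probe set 1418454_at had 2722, 12036 and 5791 in rotated 1, rotated 2 and rotated 3, against 7346, 13277 and 6818 in static 1, static 2 and static 3. The groups overlapped widely, and yet each rotated sample lay below the static sample of its number, by far the most in rotated 1. The log2 difference was -0.67 ± 0.45, and -0.67 ± 0.28 with the replicate block (adjusted p 0.339 in limma). Leaving out rotated 1 made it -0.13, and leaving out rotated 2 made it -1.18. The second Mfap5 probe set, 1449082_at, showed the same order of samples within each number, with 817, 2497 and 1036 in rotated samples and 1569, 2981 and 1164 in static samples, and a difference of -0.43 ± 0.44. That difference was -0.064 without static 2, -0.16 without rotated 1, -0.24 without rotated 3, -0.74 without static 3 and -0.89 without rotated 2. The part of rotated 1's actin ratio was not tested beyond the fit with that ratio as a covariate, where the brighter probe set stood at 0.14. Mfap2 was dim in both probe sets and below the filter. Its signals ran from 16.6 to 49.0 in rotated samples and from 24.8 to 90.5 in static ones, with differences of -0.23 ± 0.43 for 1417359_at and 0.11 ± 0.40 for 1447833_x_at.

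**Figure D3:**
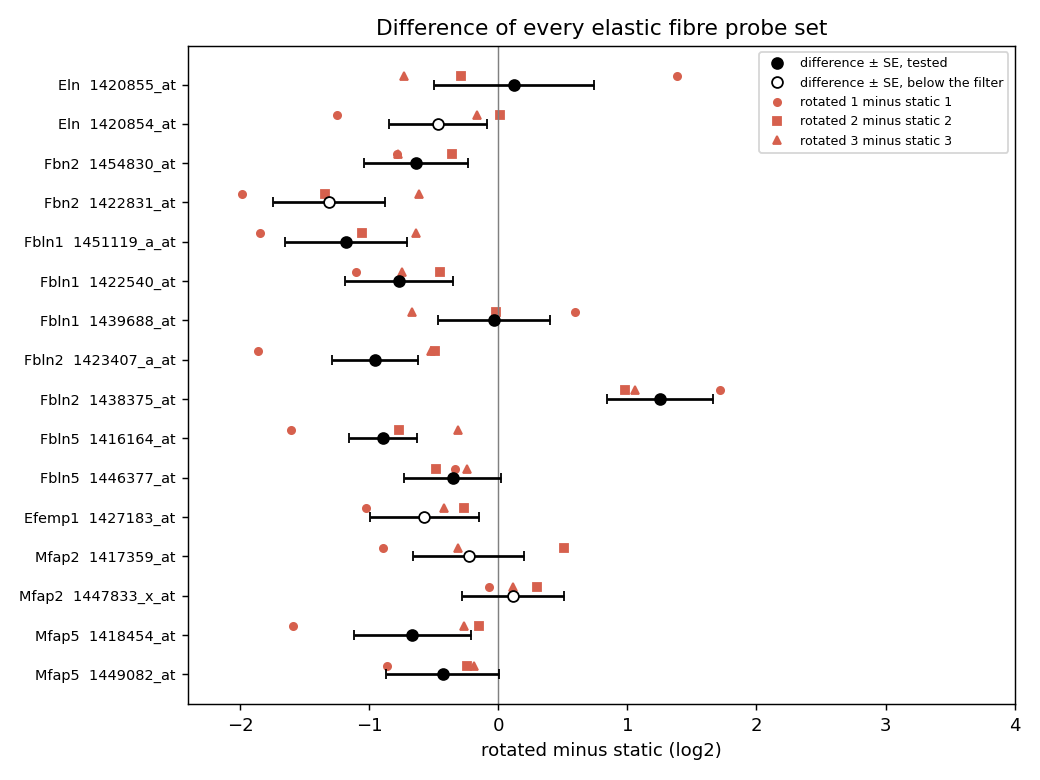
Log2 difference, rotated minus static, of all 16 elastic fibre probe sets, with limma's SE as a bar. Filled circles are the 11 tested probe sets, open circles the 5 below the filter (from the fit without a filter), and the small red symbols give the difference within each replicate number. The red symbols of number 1 lie farthest left for the brightest probe sets of Fbln1, Fbln2, Fbln5 and Mfap5, and 1438375_at of Fbln2 lies to the right of 0 in all 3 numbers.

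Across the 6 genes above the filter, the mean level relative to the static mean came to -1.26, -0.47 and -0.38 in rotated 1, rotated 2 and rotated 3, against -0.21, 0.05 and 0.16 in static 1, static 2 and static 3. Rotated 1, with its high actin ratio, was the lowest, and all rotated arrays lay below all static ones. Without rotated 1 the median difference of the genes was -0.57, and with an actin covariate it was -0.45. The covariate fit cannot tell the actin ratio from rotation. All 7 pre-osteoblast markers were also lower in value, with a median of -0.55, where 46.8% of all tested genes were lower. At an unadjusted p under 0.05 in limma 4 of them were lower, where 3.74% of all tested genes were, and 0 passed adjusted. In the order of the numbers, Dlx5 differed by -1.82, -0.92 and -0.50 and Col1a1 by -1.66, -0.46 and -0.24. Col1a2 differed by -0.67, -0.16 and -0.25, and Sp7 by -0.86, -1.13 and -0.53. The second Col1a1 probe set stood at -0.21 ± 0.22, and the other Col1a2 probe sets at -0.64 ± 0.23 and -0.29 ± 0.41. Alpl, at -0.28 ± 0.47, and Pth1r, at -0.35 ± 0.94, differed by less than their error. The summed signal of the 7 markers was 25912 to 33840 in rotated samples and 35908 to 40217 in static samples. Nearly all of that sum came from Col1a2 and Col1a1, with 22048 and 3316 in rotated 1. Smooth muscle cells also make elastic fibres, and their markers (Myh11, Cnn1, Des and Smtn) summed to 509 to 825 in rotated samples and 449 to 1101 in static samples, with overlapping ranges. The endothelial sums were 34.3 to 146 in rotated samples and 83.6 to 126 in static samples, and the blood cell sums 86.4 to 163 in rotated samples and 81.9 to 124 in static samples. The part of these markers in the fibulin differences was not tested. In RNA from a whole culture, fewer cells of a type and less RNA per cell cannot be told apart.

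Among other genes of elastic fibre formation, taken from 5 lists, the integrin receptors were mostly lower in value and the other 4 lists were mixed. The cross-linking enzymes, which join elastin and collagen chains, were close to equal: of 4 tested genes 3 were higher and 1 lower in value, with a median of 0.05 and 0 at an unadjusted p under 0.05. Lox, the lysyl oxidase, had 29374, 27710 and 22710 in rotated samples and 29639, 22000 and 22236 in static samples. Its difference was -0.08 ± 0.14, and its other tested probe sets stood at -0.48 ± 0.21 and -0.39 ± 0.31, with groups that did not overlap in either. Loxl1, which fibulin-5 helps to place on elastin, differed by 0.13 ± 0.23, Loxl3 by 0.07 ± 0.21 and Loxl4 by 0.03 ± 0.26. The second tested probe set of Loxl1 stood at 0.40 and that of Loxl4 at -0.42.

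Of 10 tested genes for other microfibril-associated proteins, 5 were higher and 5 lower in value, with a median of -0.05 and 0 at an unadjusted p under 0.05. These counts use the brightest probe set of each gene. For Ltbp3 that set stood at 0.13, and its other tested probe sets at 0.08, 0.53 and 1.36 ± 0.42. The groups did not overlap in the last 2, which were dim, and the adjusted p of the last was 0.592 in limma. Emilin2, an elastin microfibril interface protein, stood at -0.55 ± 0.27 and Adamtsl4, which binds fibrillin, at -0.67 ± 0.34. With the replicate block these were the 2 genes of the list at an unadjusted p under 0.05, where 15% of all tested genes were. Vcan, the proteoglycan versican that binds fibulins, stood at 0.34 ± 0.24, with its other tested probe sets at 0.20 and, without overlap of the groups, 0.53 ± 0.27. Thsd4, a promoter of fibrillin assembly, stood at -0.74 ± 0.55. Among 5 tested elastin-degrading proteases 3 were higher and 2 lower, with a median of 0.14. The gelatinase gene Mmp2 stood at -0.46 ± 0.21 (second probe set -0.29), the cathepsins Ctsk and Ctsl at 0.50 ± 0.38 and 0.21 ± 0.21, and the elastase Cela1 at -0.22 ± 0.54.

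Integrin receptors for fibrillin and fibulin-5 were lower in value for 5 of 6 tested genes, with a median of -0.53 that became -0.24 without rotated 1. Itgb1, the beta-1 integrin chain shared by many matrix receptors, had 2190, 5536 and 5844 in rotated 1, rotated 2 and rotated 3, against 8138, 8054 and 6862 in static 1, static 2 and static 3. All rotated samples lay below all static ones, with rotated 1 far below the rest, and the difference was -0.94 ± 0.34 (adjusted p 0.592 in limma). Without rotated 1 it was -0.48. Itgb5 stood at -0.67 ± 0.30, and at -0.33 without rotated 1, with its other 3 tested probe sets between -0.61 and -0.12. Itga8 stood at -0.66 ± 0.38, and at -0.38 without static 2. Itgav stood at -0.19 ± 0.18 in its brightest probe set. Its other tested probe sets stood at -1.28 ± 0.59 and -1.33 ± 0.51, without overlap of the groups. Within number 1 these dimmer sets differed by -2.94 and -2.03. Itga9 stood at 0.60 ± 0.51, at 0.20 without static 3 and at 1.07 without static 2. With an actin covariate, which itself separates the groups, the integrin median was -0.14. Among genes for secretion, processing and copper supply, 2 of 6 were higher and 4 lower, with a median of -0.11. Atp6v0a2, a proton pump subunit whose loss in people causes lax skin, stood at 0.67 ± 0.27, with its other probe sets at 0.20 and -0.09. Bmp1, a protease that activates Lox, stood at -0.39 ± 0.23, with a second probe set at -0.56 ± 0.28. Pcolce, an enhancer of that protease, stood at -0.19 ± 0.15, but its second tested probe set differed by -0.87 ± 0.25 with groups that did not overlap (adjusted p 0.592 in limma). The transporter gene Slc2a10 stood at -0.18 ± 0.29 and, in its second probe set, at -0.32. None of the 31 tested genes of these 5 lists passed adjusted over all probe sets in limma, and 3 had an unadjusted p under 0.05 (Mmp2 and Itgb1 lower, Atp6v0a2 higher), beside 8.24% of all tested genes.

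**Figure D4:**
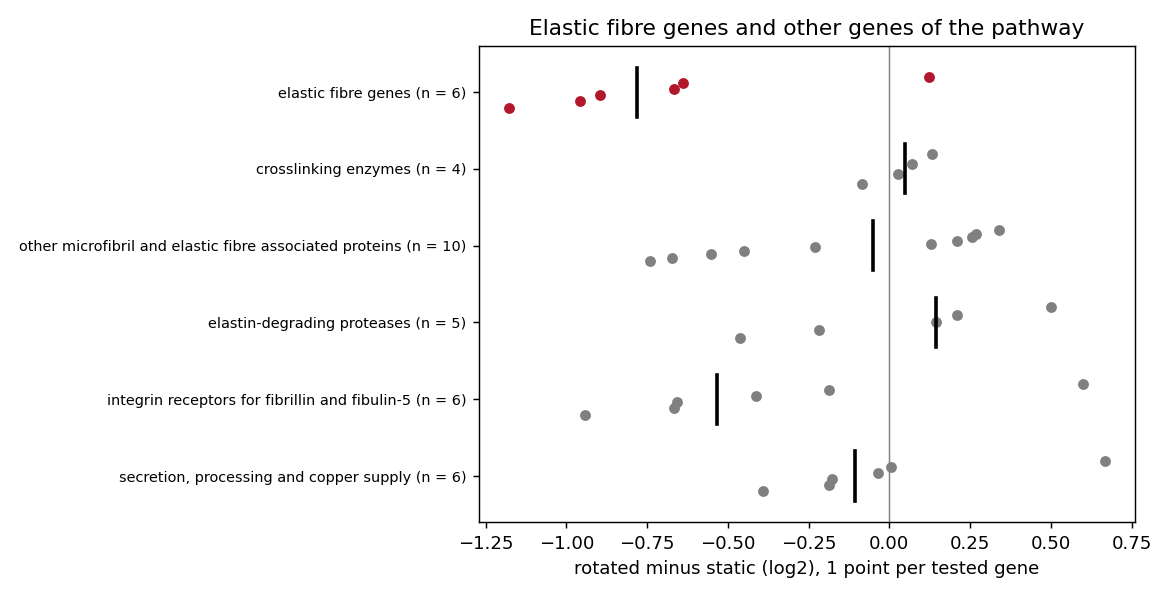
Log2 difference, rotated minus static, of each tested elastic fibre gene (red) and of each tested gene in 5 lists of the same pathway (grey), with the median of each list as a vertical bar. The elastic fibre median lies at -0.78 and the integrin median at -0.53, while the other 4 medians lie between -0.11 and 0.14.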

How the data were processed

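For each array the authors deposited linear signal intensities, 1 per probe set, already scaled so that the mean without the extreme 2% at either end is 500; the summary software is not given in the sources used here. An offset of 16.6, the 20th percentile of all values, was added before taking log2, and arrays were quantile normalised because their medians differed by 85.9% (tolerance 10%). The 64 control probe sets and those with a mean below the 40th percentile were left out, leaving 27022 probe sets and 12554 genes. Symbols of the platform's probe table were updated through gene identifiers in a RefSeq table; 34945 probe sets had 1 symbol, 932 several and 9160 are unnamed here. All tested probe sets were fitted with limma 3.58.1 under R 4.3.3 (two-sided, intensity trend in eBayes, no block), and adjusted by Benjamini-Hochberg at 0.05. The SE is limma's moderated one. The number of arrays limits the precision, and detection calls were not used here.

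Deviations from the group means correlated at 0.196, 0.313 and 0.334 for same-numbered samples and at -0.19 to -0.09 for others, so the numbers were taken to pair the samples; what a number stands for is not in the labels, and deviations that cancel within a group favour such a pattern. Named are all members with every probe set and, in each list, up to 4 genes with the smallest p. Ltbp3 and Itgav are named besides these because their probe sets differ in size of change. Not every such gene is named. The members and lists were chosen with earlier results of these data known. The limma step was tested on simulated data, in 20 runs with 200 changed probe sets each. It recovered 2.7% of 2-fold changes and 34.9% of 4-fold changes, with 1.45 false calls per run. The simulated noise was independent between arrays, unlike that of the same-numbered samples, and changes were planted in probe sets of any brightness. Most 2-fold changes were missed in that setting, and the rate for the fibulin probe sets was not tested. The lack of adjusted calls does not show that the fibulin genes are unchanged.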

Additional observations from a re-analysis of the deposited data

How the results depend on the processing

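Fbln5, Fbn2, the 2 brighter probe sets of Fbln1 and both of Fbln2 kept their direction in each alternative run on them, and no elastic fibre probe set passed adjusted over all probe sets in any. The alternatives were other scaling, offsets and filters, no trend, robust fitting, array weights, the mean over a gene's probe sets, the replicate block, the actin covariate, and leaving out each array or static 1 and rotated 1 together. The cause of the changes below was not tested. Over all probe sets 22 passed with array weights and 2 with the replicate block; the block changed no call of an elastic fibre gene. The unadjusted count of 3 genes became 0 with median centring, the actin covariate or both arrays left out, and 1 to 3 without single arrays. With no trend it was 2, as Fbln1 dropped out. The count of genes whose groups do not overlap became 0 with median centring, 2 with both arrays left out and 1 to 3 without single arrays. Averaged over its probe sets, Fbln2 stood at 0.15. The median of all tested genes was 0.13 with median centring, beside 0.03. Eln turned to -0.11 as deposited, -0.29 with array weights, -0.67 without static 1, -0.06 without rotated 2 and -0.51 with both left out, within -0.67 to 0.53 without single arrays. Fbln1 1439688_at turned to 0.044 with weights, 0.17 without static 2, 0.0018 without static 3 and 0.25 without rotated 3, within -0.26 to 0.25 without single arrays. Mfap5 turned to 0.069 and, for 1449082_at, 0.35 with weights, and to 0.14 with the actin covariate. Of the other genes, Lox turned to 0.12 as deposited, 0.25 with median centring, 0.0010 with weights and 0.050 with both left out. Loxl4 turned to -0.050 as deposited, -0.11 with weights, -0.17 without static 2, -0.03 without rotated 1 and -0.072 with the actin covariate, where Loxl3 stood at -0.017. Pcolce turned to 0.060 as deposited and 0.20 with median centring. Cela1 turned to 0.17 without static 1, 0.08 without rotated 2 and 0.089 with both left out, within -0.75 to 0.17 without single arrays. With weights Thsd4 turned to 0.13, Ctsl to -0.034 and Slc2a10 to 0.051. List medians moved to 0.23 (cross-linking) and 0.072 (secretion) with median centring, -0.42 (proteases) and -0.055 (secretion) with weights, and -0.14 (integrins) with the actin covariate. Without single arrays the medians ran from -0.20 to -0.0042 (secretion) and -0.77 to -0.24 (integrins), and turned sign for cross-linking (-0.07 to 0.09), microfibril-associated proteins (-0.17 to 0.11) and proteases (-0.18 to 0.36). The stricter filter left out Eln, Fbn2, 1439688_at, 1438375_at and 1446377_at, which have no value there.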
